A study of Homo sapiens with 10 samples.

Results

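Copper enters, moves within and leaves human cells through a small set of transporters and chaperones, and several of the same proteins, with a chloride channel and a glutathione transferase, have been linked to platinum drugs. 10 genes of this kind were taken by symbol from the 58222 genes of the deposited table: SLC31A1, SLC31A2, ATP7A, ATP7B, ATOX1, CCS, COX17, GSTP1, LRRC8A and LRRC8D. They were measured by RNA sequencing in OVCAR-3, an established line of human ovarian adenocarcinoma grown in RPMI medium with fetal bovine serum. Every group was this single line with no genetic change named, in 5 groups of 2 biological replicates, so that each group is a model of 1 line only. Treated cells had outlived 24 hours in 0.5 uM cisplatin, which binds DNA through its platinum, and were then left for 2 weeks to recover; they were never immobilized. Extracted cells had lived through 3 days inside silica gel and were then returned to ordinary culture for 2 weeks. Day3 cells were taken after 3 days in silica gel, Day1 cells after 24 hours in it, and Control cells came from standard culture. Treated and Extracted cells are survivors of their treatments, the share that survived is not stated in the labels, and a control culture carried for the same 2 weeks was not analysed here.

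Reduced copper is taken up at the plasma membrane mainly by the SLC31A1 protein, often called CTR1. Inside the cell it is handed on by chaperones: ATOX1 to the copper pumps ATP7A and ATP7B in the secretory pathway, CCS to the antioxidant enzyme SOD1, and COX17 to the assembly of cytochrome c oxidase in mitochondria. In studies of cisplatin in cultured cells, CTR1 and the volume-regulated anion channel formed by LRRC8A with LRRC8D have been linked to drug entry, the pumps to its removal or sequestration, and GSTP1 to glutathione conjugation, and ovarian cancer lines are among those most used in that work.

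Values are TPM, a level corrected for transcript length and scaled to a fixed sum within each library. All 10 members passed the filter of at least 1 TPM in at least 2 libraries, which 15167 genes passed in all. A fold change is the mean log2(TPM + 1) of the group named first less that of the other, tested with limma over all these genes, and calls are made where the p adjusted after Benjamini and Hochberg is under 0.05. Errors after ± are the SD of the 2 libraries of a group. On this scale the change of genes at a few TPM, such as ATP7A, ATP7B and SLC31A2, is understated. TPM are shares of a library, depth is unknown, and in bulk RNA fewer cells with a transcript and less of it per cell cannot be told apart. Between 13896 and 14173 genes reached 1 TPM per library, and 11 of 11 epithelial and ovarian markers did so in every library. Of 12 markers of blood, endothelium, fibroblasts and liver, 1 (COL1A1) reached 1 TPM in every library and 7 stayed below it in all, and the summed level of the 12 was 10.0 to 18.8 TPM. Messenger RNA of the 13 mitochondrial genes took 10.8% and 10.4% of TPM in Treated libraries, 11.1% and 10.6% in Extracted, 5.97% and 7.61% in Day3, 2.29% and 3.92% in Day1, and 16.7% and 15.8% in Control. Small RNA genes took 14.7% in Treated replicate 2 and 3.21% in Extracted replicate 1, against at most 1.24% in the other libraries. These shares set the scale of every TPM. The libraries were also rescaled in 3 other ways, and folds under a rescaling are given where it made or ended a member's call. In 1 of these, median-of-ratios scaling, each library is divided by a factor. The factors were 1.131 and 1.072 in Day1, 1.062 and 1.035 in Day3, and 0.9939 and 1.024 in Control libraries. They were 0.9826 and 1.008 in Extracted and 0.9675 and 0.8378 in Treated libraries. How far the order of a gene's group means follows these factors was not tested.

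Of the 10 members, 4 were called in at least 1 of 7 comparisons, with 7 calls in 70 tests. The genes called were the uptake transporter SLC31A1, the export pump ATP7A and the channel subunits LRRC8A and LRRC8D. SLC31A2, ATP7B, ATOX1, CCS, COX17 and GSTP1 were called in none. In cisplatin survivors against Control, 3 members were called, all lower, where 24.5% of all tested genes were called and 18.2% were called lower. Extracted against Day3 gave 2 calls, both lower, where 17.1% of all tested genes were called and 10.8% were called lower. Day1 against Control gave 1 call, higher, beside 20.7% of tested genes called and 14.4% called higher. Treated against Extracted gave 1, lower, beside 12.1% called and 8.87% called lower. None of the 10 was called by limma in Day3 against Control, Extracted against Control or Day3 against Day1, where 9.82%, 1.99% and 2.35% of tested genes were called. At an unadjusted p under 0.05 those 3 comparisons held 2, 1 and 1 members, and none of the alternatives run gave a call in them. The groups did not overlap, with both libraries of one above both of the other, for 6 members in Day1 against Control (62.8% of all tested genes), 7 in Day3 against Control (63.9%), 8 in Extracted against Control (57.7%) and 8 in Treated against Control (62.4%). The same count was 6 in Day3 against Day1 (50.2%), 7 in Extracted against Day3 (68.7%) and 8 in Treated against Extracted (58.2%). No test was made of these counts, and nothing is read from them about the set as a whole. The median fold of the members was -0.38 in Treated against Control, beside -0.15 over all tested genes, and 0.12 in Day1 against Control, beside 0.12.

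**Figure D1:**
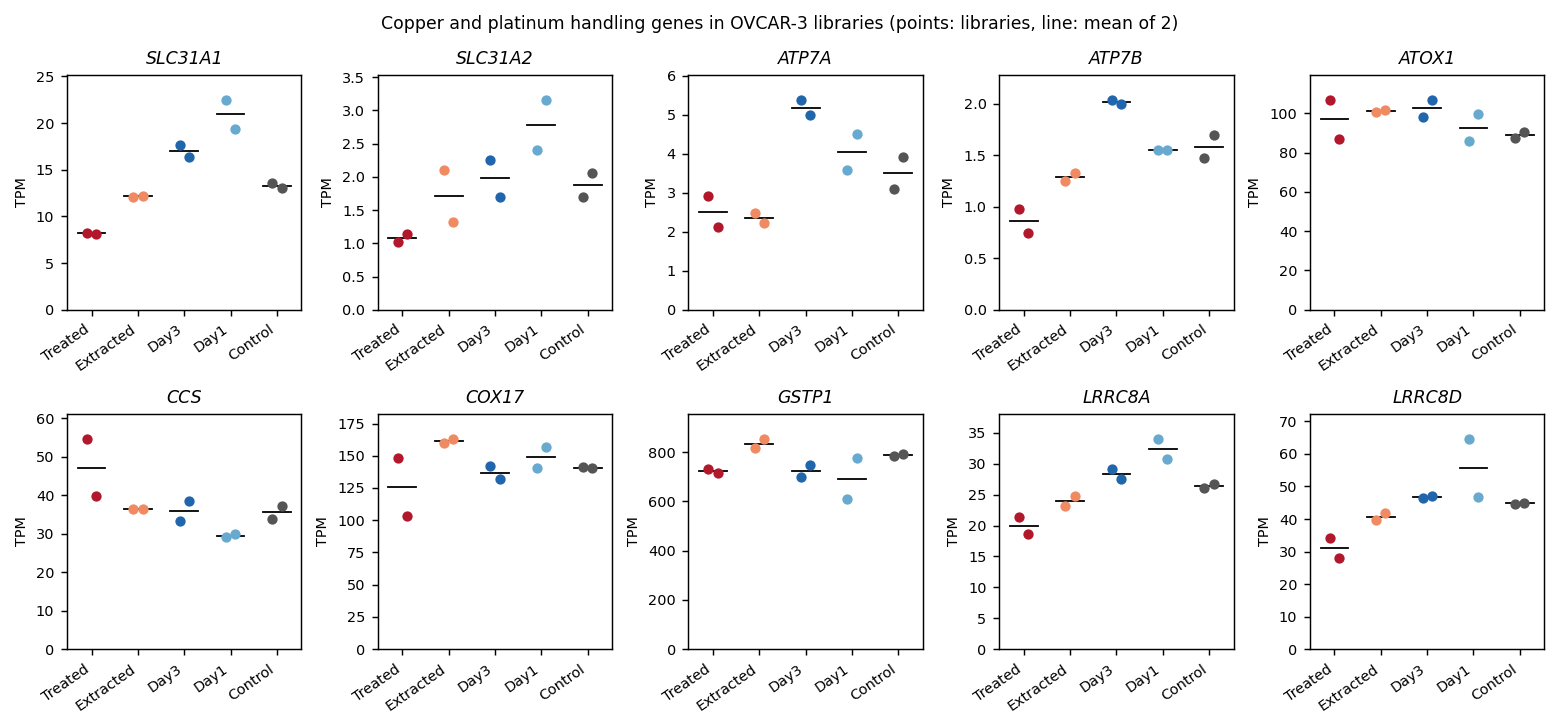
TPM of the 10 copper and platinum handling genes, with 1 panel per gene and its own vertical axis starting at 0; points are libraries of the groups named on the horizontal axis and lines are the means of 2. SLC31A1, SLC31A2, LRRC8A and LRRC8D all have their highest mean in Day1 cells and their lowest in Treated cells, while ATOX1, COX17 and GSTP1 have no such order. The library factors of median-of-ratios scaling are also highest in Day1 and lowest in Treated.

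The 250 bases before and 50 after 1 annotated start of each of the 4 called genes are shown because their RNA differed between groups. A motif match describes letters only. LRRC8A, LRRC8D and COX17 have 2 annotated promoters each and ATP7B has 3. For these genes only the window nearest the start of the gene was searched, so a motif may stand in another. They are RefSeq sequences on GRCh38.p14, written 5′ to 3′ on the strand of the gene. SLC31A1 lies at chr9:113221294-113221593, LRRC8A at chr9:128881883-128882182, LRRC8D at chr1:89820782-89821081 and ATP7A at chrX:77910443-77910742, all on the plus strand. Capitals mark GGGCGG, the GC box, or its complement CCGCCC, and TGACGTCA, the cyclic AMP response element, on either strand.
SLC31A1: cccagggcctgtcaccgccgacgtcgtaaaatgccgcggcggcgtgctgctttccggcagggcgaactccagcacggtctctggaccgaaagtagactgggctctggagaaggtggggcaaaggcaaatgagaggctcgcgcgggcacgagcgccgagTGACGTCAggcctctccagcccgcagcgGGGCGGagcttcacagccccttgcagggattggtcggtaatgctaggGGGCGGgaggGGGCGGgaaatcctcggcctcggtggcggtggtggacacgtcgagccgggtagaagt
LRRC8A: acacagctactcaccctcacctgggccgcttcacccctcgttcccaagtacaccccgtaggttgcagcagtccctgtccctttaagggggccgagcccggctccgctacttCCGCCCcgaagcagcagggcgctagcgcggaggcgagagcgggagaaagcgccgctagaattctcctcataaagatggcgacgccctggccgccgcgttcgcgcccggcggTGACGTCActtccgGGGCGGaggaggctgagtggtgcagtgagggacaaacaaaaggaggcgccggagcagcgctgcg
LRRC8D: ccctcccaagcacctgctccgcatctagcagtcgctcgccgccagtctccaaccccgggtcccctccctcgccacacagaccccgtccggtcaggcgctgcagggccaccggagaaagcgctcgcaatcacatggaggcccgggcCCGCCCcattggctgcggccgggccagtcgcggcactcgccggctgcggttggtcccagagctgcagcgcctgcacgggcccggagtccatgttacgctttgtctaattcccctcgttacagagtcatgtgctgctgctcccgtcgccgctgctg
ATP7A: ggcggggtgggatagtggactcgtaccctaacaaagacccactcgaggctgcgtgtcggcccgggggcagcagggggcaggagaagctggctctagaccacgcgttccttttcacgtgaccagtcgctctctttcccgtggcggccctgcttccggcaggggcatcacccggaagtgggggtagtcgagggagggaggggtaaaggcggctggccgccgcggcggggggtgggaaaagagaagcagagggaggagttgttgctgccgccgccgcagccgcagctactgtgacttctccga

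TGACGTCA stood in the SLC31A1 window, with its first base at -92 from the start, and in the LRRC8A window at -28, and in none of the other 7 windows searched. It was added to the search after these sequences had been read, and 1.85% of the 35116 windows of this kind in the genome hold it. GC boxes numbered 3 in SLC31A1, 2 in LRRC8A, 1 in LRRC8D and 0 in ATP7A, where 45% of all windows hold at least 1. The metal response core, TGCACNC or TGCGCNC on either strand, which the zinc-sensing factor MTF1 binds, was in 5 of the 9 member windows, those of ATP7B, ATOX1, CCS, COX17 and GSTP1, and 29.6% of all windows hold it. The antioxidant response core TGACNNNGC was in 3 of the 9, those of ATOX1, CCS and GSTP1, with 13.3% of all windows; in GSTP1 it read TGACTCAGC at -66. Neither core was in the windows printed above. Matches on the 2 strands overlap each other in ATOX1 and CCS, and no match to one motif overlaps a match to another. A window for SLC31A2 was not used here.

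SLC31A1 (ENSG00000136868, chr9:113221562-113264492 on GRCh38, plus strand, protein coding), the copper importer, was called in 4 of the 7 comparisons, more than any other of the 10 genes. Its level was 8.23 and 8.13 TPM in Treated cells, 12.1 and 12.2 in Extracted, 17.7 and 16.4 in Day3, 22.5 and 19.4 in Day1, and 13.6 and 13.0 in Control. The order of the means ran from Day1 through Day3, Control and Extracted to Treated, and no neighbouring groups in that order overlapped. SLC31A1 fell in cisplatin survivors, with 8.18 ± 0.0702 TPM against 13.3 ± 0.379 in Control (SD, n = 2 each), a log2 fold of -0.64 (95% interval -0.90 to -0.38, adjusted p = 0.00417). It also fell in Treated against Extracted cells, 2 groups that both recovered for 2 weeks, with a log2 fold of -0.52 (-0.78 to -0.27, adjusted p = 0.0217). In silica gel the direction was the opposite. SLC31A1 rose in Day1 cells, with 21.0 ± 2.19 TPM against 13.3 ± 0.379 in Control and a log2 fold of 0.62 (0.36 to 0.87, adjusted p = 0.00657). After 3 days it was at 17.1 ± 0.911 TPM, a log2 fold of 0.34 against Control (0.08 to 0.59, adjusted p = 0.0975) and of -0.28 against Day1 (-0.54 to -0.02, adjusted p = 0.252), neither called. It fell in Extracted against Day3 cells by 0.45 on the log2 scale (adjusted p = 0.024), and its fold in Extracted against Control cells was -0.12 (-0.38 to 0.14, adjusted p = 0.647). The fall in Treated against Control kept its call in every alternative but a minimum of 2-fold. The other 3 SLC31A1 calls rested on more: Day1 against Control had an adjusted p of 0.0538 without Control replicate 2, and Extracted against Day3 lost its call without either replicate of either group (adjusted p = 0.0848 to 0.162). Treated against Extracted lost its call without Extracted replicate 1 or 2 or Treated replicate 2 (0.113, 0.139 and 0.0664), and with these 2 groups fitted alone (0.105). These comparisons share the Control, Extracted or Treated libraries, so they are not separate evidence of one another.

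SLC31A2 (ENSG00000136867, chr9:113150942-113164137, plus strand), a related membrane protein also named CTR2 that is thought to act on intracellular copper stores, was near the filter. It had 1.02 and 1.14 TPM in Treated cells, 2.10 and 1.32 in Extracted, 2.26 and 1.69 in Day3, 2.40 and 3.16 in Day1, and 1.69 and 2.05 in Control. The means had the same order as those of SLC31A1, with Day3, Control and Extracted overlapping, and both Day1 libraries above all others. No comparison was called, the fold in Treated against Control was -0.46 (-0.92 to 0.00, adjusted p = 0.132), and that in Day1 against Control was 0.39 (-0.07 to 0.86, adjusted p = 0.202). Its exons share 1579 bases with FKBP15 on the opposite strand, at up to 13.9 TPM, and without a stated strand setting reads of the 2 genes cannot be told apart, so the level of SLC31A2 is uncertain.

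The copper pump ATP7A (ENSG00000165240, chrX:77910656-78050395, plus strand) was highest after 3 days in silica gel. It had 2.91 and 2.13 TPM in Treated cells, 2.49 and 2.22 in Extracted, 5.39 and 4.99 in Day3, 3.58 and 4.52 in Day1, and 3.11 and 3.92 in Control. Both Day3 libraries were above the other 8, Day1 overlapped Control, and Treated overlapped Extracted. ATP7A fell in Extracted against Day3 cells, with 2.35 ± 0.192 TPM against 5.19 ± 0.282 (SD, n = 2 each), a log2 fold of -0.88 (-1.28 to -0.49, adjusted p = 0.00875). Against Control the folds were 0.46 in Day3 (0.06 to 0.86, adjusted p = 0.135), -0.43 in Extracted (-0.82 to -0.03, adjusted p = 0.249), -0.36 in Treated (-0.76 to 0.03, adjusted p = 0.163) and 0.16 in Day1 (-0.23 to 0.56, adjusted p = 0.549), none called. The call was lost without Day3 replicate 1 (-0.84, adjusted p = 0.0723) or Extracted replicate 2 (-0.83, adjusted p = 0.0698). With a pseudocount of 0.1 in place of 1, the ATP7A fold in Extracted against Day3 was -1.11 (limma, adjusted p = 0.00943). The 2-fold minimum was set on log2(TPM + 1), where the fold fell short of it. The exons of ATP7A share 97 bases with PGK1 on the same strand, a glycolytic gene at up to 704 TPM. They share 287 with a processed pseudogene, and how reads over these bases were divided is not given in the sources used here.

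ATP7B (ENSG00000123191, chr13:51930436-52012125, minus strand), the pump mutated in Wilson disease, stayed at about the level of the filter. It had 0.979 and 0.750 TPM in Treated cells, 1.25 and 1.33 in Extracted, 2.04 and 2.00 in Day3, 1.55 and 1.55 in Day1, and 1.47 and 1.70 in Control. Both Treated libraries were the lowest and both Day3 libraries the highest, and only Day1 and Control overlapped. The fold in Treated against Control was -0.47 (-0.85 to -0.09, adjusted p = 0.0695), and that in Extracted against Day3 was -0.40 (-0.78 to -0.02, adjusted p = 0.138), neither called. With nuclear protein-coding genes alone rescaled, ATP7B passed in Treated against Control (-0.47, adjusted p = 0.0378). The level of SLC31A1 over that of ATP7A, a ratio of import to export transcripts per length, was 2.83 and 3.82 in Treated, 4.87 and 5.52 in Extracted, 3.29 and 3.29 in Day3, 6.29 and 4.3 in Day1, and 4.36 and 3.33 in Control libraries. Control overlapped Treated and Day1 in this ratio, and Extracted lay above Treated, Day3 and Control in both libraries.

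**Figure D2:**
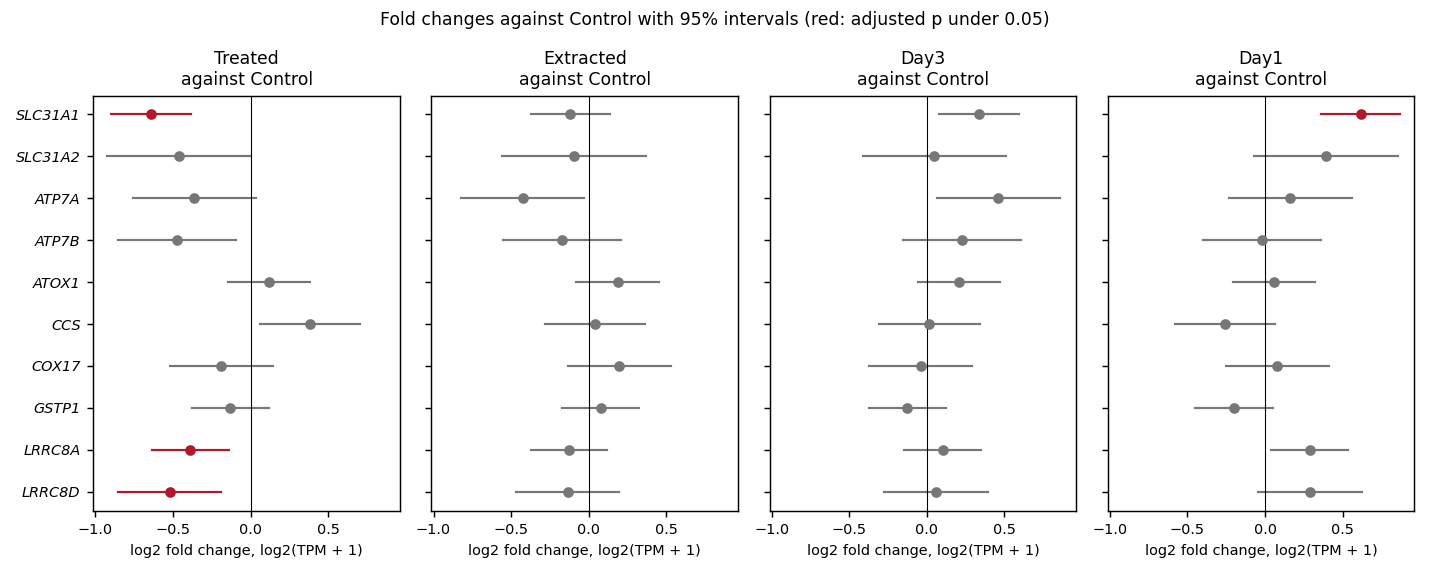
Log2 fold changes of the 10 genes in each group against Control, on the log2(TPM + 1) scale, with 95% intervals; red marks an adjusted p under 0.05 in limma. SLC31A1 stands to the left of 0 in Treated cells (-0.64) and to the right in Day1 cells (0.62), and no gene is marked in Extracted or Day3 cells.

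The 3 chaperones were called in no comparison. ATOX1 (ENSG00000177556, chr5:151742316-151772532, minus strand), which loads the pumps, had 107 and 87.2 TPM in Treated cells, 101 and 102 in Extracted, 98.1 and 107 in Day3, 85.9 and 99.8 in Day1, and 87.4 and 90.4 in Control. Every pair of neighbouring groups in the order of its means overlapped, and its 7 folds ran from -0.07 in Treated against Extracted to 0.21 in Day3 against Control (-0.06 to 0.47, adjusted p = 0.302). The level of ATOX1 was thus many times that of SLC31A1 or the pumps per length, and its intervals in all comparisons included 0. Its exons share 130 bases with G3BP1 on the opposite strand.

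CCS (ENSG00000173992, chr11:66592821-66606019, plus strand), which delivers copper to SOD1, had 54.6 and 39.7 TPM in Treated cells, 36.4 and 36.5 in Extracted, 33.4 and 38.5 in Day3, 29.0 and 29.9 in Day1, and 33.9 and 37.1 in Control. Both Treated libraries lay above all others and both Day1 libraries below, the reverse of SLC31A1, and the 2 Treated libraries were far apart. The fold in Treated against Control was 0.39 (0.06 to 0.71, adjusted p = 0.0797), that in Treated against Extracted was 0.35 (0.02 to 0.67, adjusted p = 0.141) and that in Day1 against Control was -0.26 (-0.58 to 0.06, adjusted p = 0.228). CCS was called under other scalings. In Treated against Control it passed with a fold of 0.55 (adjusted p = 0.00776) under median-of-ratios scaling, 0.43 (0.0131) with nuclear protein-coding genes alone, 0.49 (0.0101) with small RNA removed, and 0.61 (0.0112) without Treated replicate 2, the library with 14.7% small RNA. In Treated against Extracted it passed under the same 3 rescalings (0.49, 0.46 and 0.44, adjusted p = 0.0253, 0.0204 and 0.0321) and without Treated replicate 2 (0.57, adjusted p = 0.0344). In Day1 against Control it passed, lower, under median-of-ratios scaling (-0.38, adjusted p = 0.0378) and with nuclear protein-coding genes alone (-0.46, adjusted p = 0.0121). SOD1 itself, the enzyme that CCS loads, was not called in Day1, Day3 or Extracted against Control, in Day3 against Day1 or in Treated against Extracted. Its state in Treated against Control and in Extracted against Day3 is not given here.

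COX17 (ENSG00000138495, chr3:119654513-119677454, minus strand), the mitochondrial chaperone, had 148 and 103 TPM in Treated cells, 160.1 and 163 in Extracted, 142 and 132 in Day3, 140.4 and 157 in Day1, and 141 and 140.3 in Control. The Treated libraries spanned the Control range, and the Extracted libraries lay above all others. Its folds were -0.19 in Treated against Control (-0.52 to 0.14, adjusted p = 0.386), -0.38 in Treated against Extracted (-0.72 to -0.05, adjusted p = 0.117) and 0.20 in Extracted against Control (-0.13 to 0.53, adjusted p = 0.539). These Treated folds rested on which Treated library was used. Without Treated replicate 1 the fold was -0.45 against Control (adjusted p = 0.00939) and -0.65 against Extracted (adjusted p = 0.0052). Without Treated replicate 2 it turned to 0.08 against Control (adjusted p = 0.609) and was -0.12 against Extracted (adjusted p = 0.474). Median-of-ratios scaling left -0.03 against Control (adjusted p = 0.896), so no direction is given for COX17 in Treated cells. In Extracted against Day3 its fold of 0.24 (-0.09 to 0.57, adjusted p = 0.303) passed with nuclear protein-coding genes alone (0.32, adjusted p = 0.0461) and with the 2 groups fitted alone (adjusted p = 0.032). The processed pseudogene COX17P1 was listed at 4.87 TPM in Treated replicate 1 and 5.07 in Day3 replicate 2 and at 0 in the other 8, and reads could be split between the copies.

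GSTP1 (ENSG00000084207, chr11:67583595-67586656, plus strand), the glutathione transferase that can conjugate electrophilic drugs, was by far the most abundant of the 10 per length. It had 730.4 and 713 TPM in Treated cells, 815 and 853 in Extracted, 700.2 and 749 in Day3, 608 and 777 in Day1, and 786 and 794 in Control. Both Extracted libraries were above all others, and Treated, Day3 and Day1 overlapped one another. No fold was called: -0.13 in Treated against Control (-0.38 to 0.12, adjusted p = 0.425), -0.21 in Treated against Extracted (-0.46 to 0.04, adjusted p = 0.239) and -0.20 in Day1 against Control (-0.45 to 0.05, adjusted p = 0.227). The sign in Treated against Control turned under median-of-ratios scaling (0.03), and Day1 against Control passed with nuclear protein-coding genes alone (-0.41, adjusted p = 0.0184) and without Day1 replicate 2 (-0.38, adjusted p = 0.0254). In Extracted against Day3 its fold of 0.20 (-0.05 to 0.45, adjusted p = 0.243) passed with the 2 groups fitted alone (adjusted p = 0.042).

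LRRC8A (ENSG00000136802, chr9:128882112-128918039, plus strand), the obligatory subunit of the volume-regulated anion channel, had 21.3 and 18.6 TPM in Treated cells, 23.2 and 24.8 in Extracted, 29.1 and 27.5 in Day3, 34.0 and 30.8 in Day1, and 26.0 and 26.7 in Control. No neighbouring groups overlapped, and the order of the means was that of SLC31A1. The mean library factors of median-of-ratios scaling also had this order, and whether the genes share it through library scale was not tested. LRRC8A fell in Treated cells, with 19.9 ± 1.90 TPM against 26.3 ± 0.523 in Control (SD, n = 2 each), a log2 fold of -0.39 (-0.63 to -0.14, adjusted p = 0.0304). The call did not hold under median-of-ratios scaling (-0.23, adjusted p = 0.0636), with small RNA removed (-0.28, adjusted p = 0.0563) or with the 2 groups fitted alone (0.11), and it was lost without Treated replicate 2 (-0.29, adjusted p = 0.117) and without Control replicate 1 or 2 (0.106 and 0.147). It was also just missed without either Day3 library or either Extracted library (0.0518 to 0.053). In Day1 against Control its fold was 0.29 (0.04 to 0.53, adjusted p = 0.0929), not called; it passed with small RNA removed (0.29, adjusted p = 0.0445) and was 0.08 (adjusted p = 0.56) with nuclear protein-coding genes alone.

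LRRC8D (ENSG00000171492, chr1:89821014-89936611, plus strand), the subunit that lets the channel pass platinum drugs and other organic solutes, had 34.2 and 28.0 TPM in Treated cells, 39.8 and 41.7 in Extracted, 46.4 and 47.0 in Day3, 64.6 and 46.8 in Day1, and 44.7 and 45.0 in Control. Both Treated libraries were the lowest, and Day3 and Day1 overlapped. LRRC8D fell in Treated cells, with 31.1 ± 4.41 TPM against 44.9 ± 0.191 in Control (SD, n = 2 each), a log2 fold of -0.52 (-0.86 to -0.19, adjusted p = 0.0309). This call held under the 3 other scalings but not without Treated replicate 2 (-0.38, adjusted p = 0.146), without Control replicate 1 or 2 (0.114 and 0.13), without either Day3 library (0.0505), with no filter on low genes (0.0883) or with the 2 groups fitted alone (0.0696). The level of LRRC8D over that of LRRC8A lay between 1.5 and 1.9 in all 10 libraries, with 1.61 and 1.5 in Treated and 1.72 and 1.69 in Control. In Treated against Extracted cells the folds were -0.39 for LRRC8D (-0.72 to -0.05, adjusted p = 0.118) and -0.26 for LRRC8A (-0.51 to -0.01, adjusted p = 0.147), neither called. LRRC8D passed there without either Day1 library (0.0478 and 0.0477). In Day1 against Control the LRRC8D fold was 0.29 (-0.05 to 0.62, adjusted p = 0.196), and it passed without Day1 replicate 2 (0.52, adjusted p = 0.0295).

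**Figure D3:**
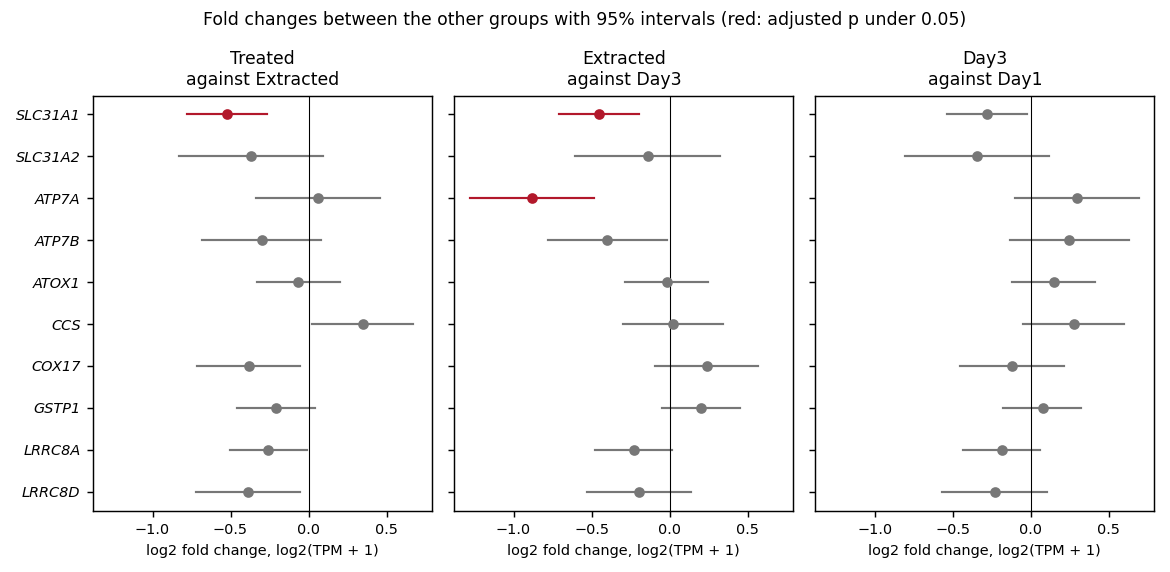
Log2 fold changes of the 10 genes in the 3 comparisons without Control, on the log2(TPM + 1) scale, with 95% intervals; red marks an adjusted p under 0.05 in limma. SLC31A1 is marked in Treated against Extracted (-0.52) and Extracted against Day3 (-0.45), ATP7A in Extracted against Day3 (-0.88), and none in Day3 against Day1.

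**Figure D4:**
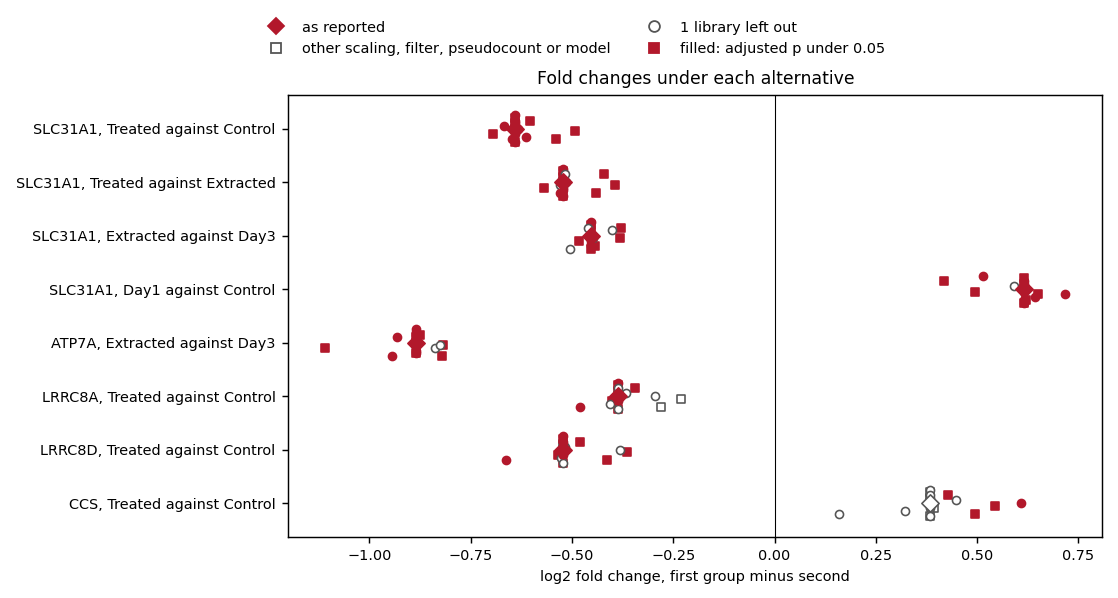
Log2 fold changes of the 7 member calls and of CCS under the processing alternatives; the 2-fold minimum is not drawn; diamonds are the reported values, squares another scaling, filter, pseudocount or model, circles a fit with 1 library left out, and filled symbols an adjusted p under 0.05. No symbol crosses 0, the reported SLC31A1 fold in Treated against Control is -0.64 with all symbols filled, and LRRC8A has open symbols at -0.23 and -0.28.

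Genes around the members were read from 7 lists of other copper, platinum and glutathione genes. Beside the list counts below, 24.5% of all tested genes were called in Treated against Control and 20.7% in Day1 against Control. The share was 9.82% in Day3 against Control and 17.1% in Extracted against Day3. No test was made of the list counts. Among the 3 other channel subunits, LRRC8B fell in Treated cells, with 8.85 ± 1.51 TPM against 13.0 ± 0.371 in Control (SD, n = 2 each), a log2 fold of -0.52 (adjusted p = 0.0388), and LRRC8C and LRRC8E were called in no comparison. The LRRC8B call was lost in 9 of 18 alternatives, among them median-of-ratios scaling, small RNA removed, and those without either Control library, either Extracted library or Treated replicate 2 (adjusted p up to 0.187). Of the 12 genes for mitochondrial copper delivery, which work beside COX17, 2 rose and 1 fell in Treated against Control, with a list median of -0.02 beside -0.15 over all tested genes. CMC1, a small assembly factor, rose to 43.5 ± 2.19 TPM in Treated cells, against 28.3 ± 0.533 in Control (log2 fold 0.60, adjusted p = 0.00609), and SCO1, which receives copper from COX17, fell to 25.1 ± 4.95 TPM, against 35.1 ± 0.928 (-0.48, adjusted p = 0.0258). COA5 was the other call there (0.60, adjusted p = 0.0252). The CMC1 call was lost without Control replicate 2. Those of SCO1 and COA5 were each kept in 13 of 18 alternatives. Both were lost with no filter, with the 2 groups alone and without either Control library. The SCO1 call was also lost without Treated replicate 2, and that of COA5 without Treated replicate 1. Over the alternatives the folds ran from 0.55 to 0.76 for CMC1, -0.68 to -0.29 for SCO1 and 0.42 to 0.78 for COA5. In Extracted against Day3, 2 of the 12 rose and none fell, with SLC25A3, which carries copper and phosphate into mitochondria, at 446 ± 15.1 TPM in Extracted and 366 ± 3.48 in Day3 cells (0.28, adjusted p = 0.0402), a call lost with the replicate number as a block and without any 1 of the Extracted, Day3 or Control libraries (up to 0.238).

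Calls among the copper enzymes went in both directions. Of 11 tested, 3 rose and 2 fell in Treated against Control, with a list median of -0.11, beside -0.15 over all tested genes. Of all 15167 tested genes, 953 were called higher there and 2762 lower. CP, the plasma ferroxidase ceruloplasmin that receives copper from ATP7B in liver, had 358 and 241 TPM in Treated, 85.1 and 75.8 in Extracted, 186 and 171 in Day3, 116 and 151 in Day1, and 91.4 and 122 in Control libraries. Both Treated libraries were above all others, and CP rose in Treated against Control (1.47, adjusted p = 0.0011) and against Extracted (1.86, adjusted p = 0.000894) and fell in Extracted against Day3 (-1.14, adjusted p = 0.0046). The collagen crosslinking enzymes LOX and LOXL2, which receive copper in the secretory pathway, went opposite ways in Treated cells. LOX fell to 0.766 ± 0.0304 TPM in Treated cells, against 3.74 ± 0.0568 in Control (-1.43, adjusted p = 0.0012). LOXL2 rose to 12.9 ± 1.29 TPM, against 5.61 ± 0.278 (1.07, adjusted p = 0.000932). LOX was also called lower in Extracted against Control, at 1.46 ± 0.0998 TPM (-0.95, adjusted p = 0.0444), a call kept in 9 of 17 alternatives. The CP, LOX and LOXL2 calls in Treated against Control held in every alternative counted, 18 for CP and LOXL2 and 17 for LOX. The 2-fold minimum was not among those counted for these lists.

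Of 19 other copper handling and cuproptosis genes, 1 rose and 3 fell in Treated against Control. Their list median was -0.22, beside -0.15 over all tested genes. DLAT, the lipoylated pyruvate dehydrogenase subunit on which copper acts in cuproptosis, fell to 19.2 ± 0.544 TPM in Treated cells, against 28.7 ± 0.644 in Control (-0.56, adjusted p = 0.00476). In Extracted against Day3, 1 rose and 2 fell, and CUTA had 116 ± 3.68 TPM in Extracted and 189 ± 7.59 in Day3 cells (-0.69, adjusted p = 0.00226). STEAP3, a metalloreductase of iron and copper, was the gene that rose in each: 3.94 ± 0.708 TPM in Treated and 1.86 ± 0.265 in Control cells (0.78, adjusted p = 0.0105), and 3.19 ± 0.0528 TPM in Extracted and 1.38 ± 0.236 in Day3 cells (0.82, adjusted p = 0.0104). The STEAP3 calls were lost without Control replicate 2 (0.0819), and without Day3 replicate 2 or either Extracted library (up to 0.0815).

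Of 10 other platinum transporters, 3 passed the filter. The efflux pumps ABCC2 and ABCB1 reached at most 0.229 and 0.722 TPM in any library. TMEM205, a membrane protein linked to cisplatin resistance in cultured cells, had 99.6 ± 20.5 TPM in Day1 and 64.8 ± 4.18 in Control cells (0.60, adjusted p = 0.016), and ABCC5 fell in Day1 cells, with 6.10 ± 0.0608 TPM against 9.12 ± 0.129 in Control (-0.51, adjusted p = 0.0178). The TMEM205 call was lost in 7 of 18 alternatives: under median-of-ratios scaling, with nuclear protein-coding genes alone, with no filter, with the 2 groups alone, and without either Control library or Day1 replicate 2 (fold down to 0.39, adjusted p up to 0.104), and the ABCC5 call with the 2 groups alone and without either Control library or Day1 replicate 1 (up to 0.0958). ABCC5 was also called lower in Treated against Control (-0.41, adjusted p = 0.0367), kept in 7 of 18 alternatives. TMEM205 fell in Extracted against Day3 (-0.65, adjusted p = 0.0117), kept in 15 of 18. Of 11 other glutathione transferases tested, 2 rose and 2 fell in Day1 against Control. In Day3 against Control 2 rose, and in Treated against Control 1 rose and 0 fell. GSTA4, which clears lipid peroxidation products, rose to 7.83 ± 0.501 TPM in Day3 cells, against 3.15 ± 0.656 in Control (1.10, adjusted p = 0.00346), and the membrane enzyme MGST1 rose to 614 ± 22.9 TPM, against 396 ± 7.66 (0.63, adjusted p = 0.00363), which was lost without Day3 replicate 1 (0.0543). GSTA4 was also called higher in Treated cells, at 5.97 ± 0.512 TPM. Its log2 fold was 0.75 against Control (adjusted p = 0.00688), kept in 17 of 18 alternatives. Against Extracted it was 0.54 (adjusted p = 0.0463), kept in 9 of 18. The 6 glutathione synthesis genes had medians of 0.33 in Day1 and -0.23 in Treated against Control, beside 0.12 and -0.15 over all tested genes. Of these genes, 3 rose in Day1 and 2 fell in Treated against Control. SLC7A11, the cystine importer, did both: 8.94 ± 1.49 TPM in Day1 cells (0.64, adjusted p = 0.0151) and 2.72 ± 0.255 in Treated cells (-0.77, adjusted p = 0.00531), against 5.36 ± 0.222 in Control. The Day1 call was lost with the 2 groups alone and without either Control library or Day1 replicate 1 (up to 0.0896).

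**Figure D5:**
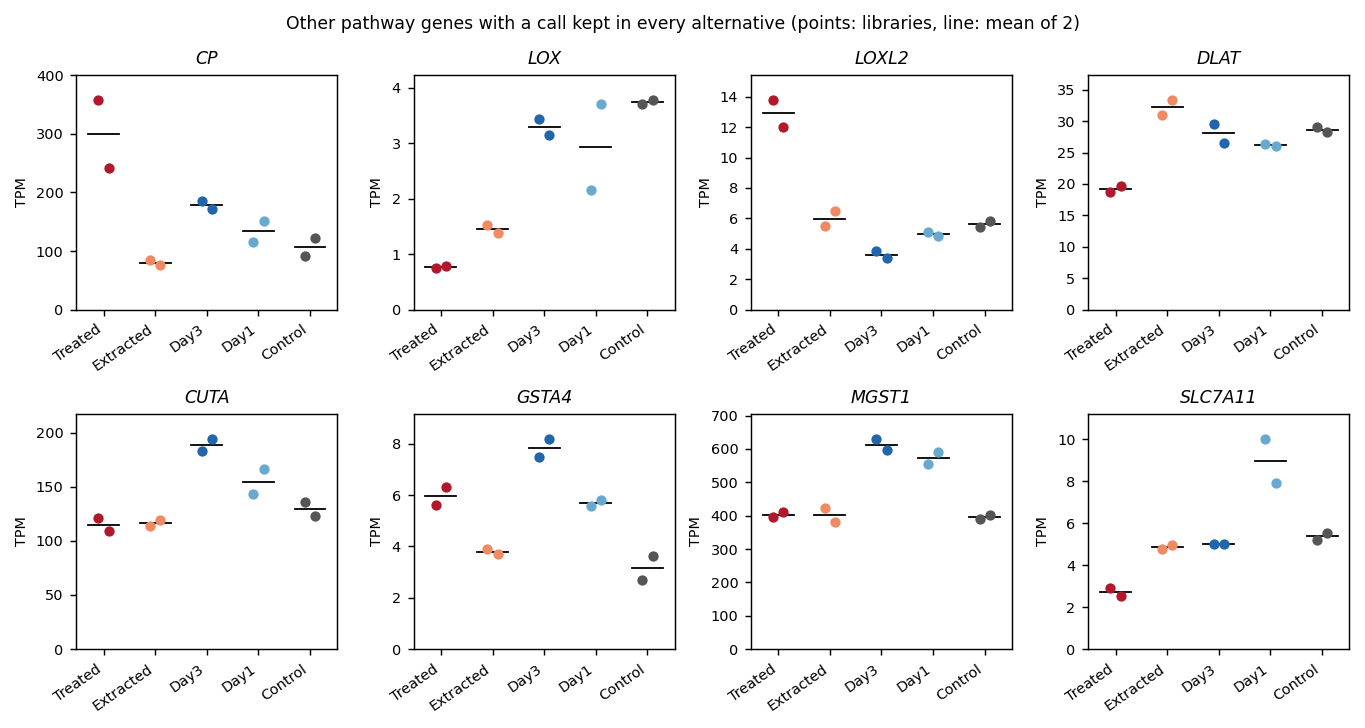
TPM of 8 other pathway genes, chosen after their values were seen because a call of each held under every alternative counted for it. The 2-fold minimum was not counted. Points are libraries of the groups on the horizontal axis, lines the means of 2, and each vertical axis starts at 0. CP and LOXL2 are highest in Treated cells, at 299 and 12.9 TPM on average, and SLC7A11 is lowest there, at 2.72 TPM.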

How the data were processed

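RNA of 10 OVCAR-3 libraries was sequenced by the authors. The deposited table holds TPM per gene, made by the authors; Trimmomatic, STAR, Cufflinks and GRCh38 are named per the submitters' processing notes, without versions, and with annotation and strand setting not stated there. The 58313 entries were summed by Ensembl identifier to 58222 genes, of which 57959 matched GENCODE release 29, used here for positions. The 15167 genes that reached 1 TPM in 2 or more libraries were fitted on log2(TPM + 1) of the deposited TPM with limma 3.58.1 in R 4.3.3, with group as the only factor, a trended prior variance, 5 residual degrees of freedom and two-sided tests; p-values were adjusted (Benjamini-Hochberg) within each comparison. TPM keep no read counts, so no counting interval is given, and a value of 0 can also be an estimate that failed. Nothing in the labels says that the biological replicates were separate cultures, so p-values measure the spread between these libraries. Members, lists and tests were chosen with earlier results of these data known. Named from each list were at most the 3 called genes with the largest folds per comparison; of these, the text gives some. SCO2 has 2 identifiers, and the more abundant was used. The fit was also run on simulated data with independent noise and no shift of scale between libraries. The real libraries do differ in scale, so nothing is concluded from that run. Alternatives were another pseudocount (0.1), other filters (none, 5 TPM), 3 rescalings, the compared groups alone, a 2-fold minimum, a replicate block and leaving out each library.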

Additional observations from a re-analysis of the deposited data

How the results depend on the processing

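No member fold that was called changed sign under any alternative. The count of members called in Day1 against Control (1) became 2 under median-of-ratios scaling, 3 with nuclear protein-coding genes alone, 2 with small RNA removed and 0 with a 2-fold minimum, and ran from 0 to 3 when 1 library was left out. In Treated against Control (3) it was 5 with nuclear protein-coding genes alone and 2 with no filter. It was 1 with the 2 groups alone and 0 with a 2-fold minimum, and it rose or fell when some single libraries were left out. Under median-of-ratios scaling and with small RNA removed it stayed at 3, but CCS, called higher, stood in place of LRRC8A. In Extracted against Day3 (2) the count was 1 with a 5 TPM filter, which ATP7A does not pass, and 3 with nuclear protein-coding genes alone. It was 4 with the 2 groups alone and 0 with a 2-fold minimum, and it fell when some single libraries were left out. In Treated against Extracted (1) it was 2 under each of the 3 rescalings, 0 with the 2 groups alone, 0 with a 2-fold minimum and 0 to 2 with 1 library left out. Counts over all tested genes moved as well. With the 2 groups alone they went from 3132 to 1894 in Day1 against Control and from 3715 to 1645 in Treated against Control. They went from 2599 to 4079 in Extracted against Day3 and from 1836 to 129 in Treated against Extracted. With a 2-fold minimum they were 461, 562, 533 and 212, in the same order. Under the 3 rescalings the Treated against Extracted count was 1715, 2034 and 1744 of 15151, 12941 and 15128 genes. A fit without 1 library assumes that the lone library of its group varies like the others. Beyond that, the cause of these shifts was not tested.

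The median fold of all tested genes in Treated against Control was -0.15 as reported and -0.01 under median-of-ratios scaling, and in Day1 against Control 0.12 and 0.01; relative to that median the SLC31A1 fold kept its direction in both. The labels do not say that replicate numbers pair the libraries, and deviations of same-numbered libraries had correlations of -0.0224 to 0.0874. With the replicate number as a block, the counts of members called were 1, 0, 0, 3, 0, 2 and 1 in the 7 comparisons, as without it. With 2 libraries per group and unknown depth, a fold that was not called is not shown to be absent.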

Other observations

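The genes whose levels followed the 4 called members most closely over the 10 libraries, by Pearson's r on log2(TPM + 1) among genes with a mean of at least 5 TPM, are given as a description; the libraries of a group share their treatment, and scale shifts of a library move many genes at once. For SLC31A1 they were WDR45B, MAD2L1BP and RNF146 (r = 0.992 each). WDR45B, an autophagy protein, had 65.3 and 62.4 TPM in Treated, 84.1 and 86.2 in Extracted, 106 and 109 in Day3, 136 and 120.0 in Day1, and 87.8 and 93.2 in Control libraries, the same order of groups as SLC31A1. For LRRC8A they were CDC5L (r = 0.994), PIP5K1A and TTI1 (0.992 each), for LRRC8D JADE3 (0.993), PPP4R3A (0.991) and SENP1 (0.989), and for ATP7A LGR4 (0.984), RAB11FIP4 (0.980) and TCEAL1 (0.972). The closest for the others were ELOVL1 for SLC31A2 (0.939), DNMT3A for ATP7B (0.984), NDUFB7 for ATOX1 (0.935), D2HGDH for CCS (0.962), TRNT1 for COX17 (0.976) and ALDOA for GSTP1 (0.974).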
